A study of Mus musculus with 32 samples.

Results

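Wwox, Fhit, Exoc4, Tbc1d5 and Eda are 5 mouse protein-coding genes that each span 425 to 1612 kb, and their RNA was followed in RADICL-seq, an assay that joins RNA to nearby DNA inside fixed nuclei. Every listed interaction whose RNA tag was assigned to 1 of these genes by Ensembl identifier was taken, which gave 5 of the 17784 genes with a listed RNA and 211532 of 25231081 listed interactions (0.838%). The genes had been picked for their length and for their loss after actinomycin D, so all values from that comparison are given below as a description without a test. The study ligated the RNA 3′ end and the DNA end through a bridge adapter, so that a sequenced molecule pairs an RNA tag with a tag of nearby DNA, and the files list the interactions of each significant pair of an RNA and a 25-kb DNA bin.

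The 32 samples stand for 15 libraries in 6 groups from 2 cell lines. The mESC 1FA group (3 libraries) was made from R08 cells, a male mouse embryonic stem cell line grown without feeders, fixed with 1% formaldehyde. The mESC 2FA group (3 libraries) was made from the same line with 2% formaldehyde. In the mESC ActD4 group (2 libraries) the cells received actinomycin D, a blocker of transcription elongation, at 5 µg per ml for 4 h before fixation. In the NPM groups (non-protein-mediated; 2 mESC libraries and 2 mOPC libraries) proteins were digested and crosslinks reversed ahead of RNA ligation. The mOPC 1FA group (3 libraries) was made from Oli-neu, a line derived from mouse oligodendrocyte progenitor cells, fixed with 1% formaldehyde. Replicates within a group were batches of cells of 1 line at different passage numbers, and not animals or lines. Significant pairs were called on pooled replicates, so libraries of a group share a list of pairs. The p-values therefore rest on a spread between batches that this listing understates. By the sums of marker lists the lines carried their labels. Sums are given as listed CPM (CPM taken over the listed total of the library). mESC markers (10 genes) stood at 2319 to 2857 in mESC 1FA and 1.81 to 3.00 in mOPC 1FA. For mOPC markers (8 genes) the sums were 6.75 to 33.2 and 2064 to 2468. Ptprz1 (3387, 2849 and 2881 interactions) and Cspg4 (1230, 1181 and 1493) made up most of the mOPC sum in mOPC 1FA. Pdgfra went the other way, with 8, 56 and 69 in mESC 1FA and 3, 8 and 4 in mOPC 1FA. Nkx2-2 was listed at 0 in both groups, and Olig1 had 3, 3 and 2 in mOPC 1FA. The neuronal microtubule gene Map2 was the exception among markers of other cells, the neuronal list reaching 899 to 1076 listed CPM in mOPC 1FA, and the fibroblast list was at 0 there. Files held between 251802 and 2832717 listed interactions per library, and these totals grow with what was called significant, so they do not measure depth.

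Very long genes need hours of polymerase travel from one end to the other, and nearly all of their primary transcript is intron. A transcript that is still attached to the polymerase lies close to the DNA it is copied from, so proximity ligation of nuclear RNA takes up much intronic sequence. WWOX is an oxidoreductase with WW domains and a tumour suppressor, and FHIT is a diadenosine triphosphate hydrolase. Both genes overlie common fragile sites, chromosome regions prone to breaks under replication stress. EXOC4 is a subunit of the exocyst, the complex that tethers secretory vesicles to the plasma membrane, TBC1D5 is a GTPase-activating protein for Rab7 that works with the retromer, and EDA (ectodysplasin A) is a ligand of the TNF family needed for hair, teeth and sweat glands.

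On mm10, Wwox lies at chr8:114439655-115352708 on the plus strand (913 kb, 9 exons), Fhit at chr14:9550092-11162035 on the minus strand (1612 kb, 10 exons), Exoc4 at chr6:33249085-33973979 on the plus strand (725 kb, 18 exons), Tbc1d5 at chr17:50733124-51179352 on the minus strand (446 kb, 22 exons) and Eda at chrX:99975606-100400762 on the plus strand (425 kb, 8 exons). The longest intron is intron 8 of Wwox (639 kb), intron 5 of Fhit (551 kb), intron 10 of Exoc4 (178 kb), intron 2 of Tbc1d5 (118 kb) and intron 1 of Eda (334 kb). RNA tag density along the genes is described below by intron, so the junction at which each longest intron begins is shown with 12 exon bases and 12 intron bases, from the RefSeq genome of the same build (GRCm38). They read 5′ to 3′ on the strand of the gene, and capitals mark the first 6 intron bases.
Wwox, intron 8, chr8:114712240-114712263: accaagtccatgGTAAGTgtgcgg
Fhit, intron 5, chr14:10421483-10421506: ttgtacctggccGTATCCttttct
Exoc4, intron 10, chr6:33580067-33580090: tccattactgagGTAAGAcagctc
Tbc1d5, intron 2, chr17:51143347-51143370: tactgccatactGTAAGTatattt
Eda, intron 1, chrX:99976165-99976188: gaccggcaccagGTGAGTcaccta

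Wwox and Exoc4 were among the most captured genes of embryonic stem cells, and the other 3 were captured at a small fraction of their level. Wwox had 19408, 15331 and 17889 listed interactions in the 3 mESC 1FA libraries, or 7274, 6279 and 6315 listed CPM. Exoc4 had 10495, 10656 and 14293 interactions (3934, 4364 and 5046 listed CPM). Fhit had 984, 613 and 889, Tbc1d5 512, 466 and 695, and Eda 480, 368 and 500. Ranked by pooled listed interactions over 12434 protein-coding genes, Wwox stood at place 2 and Exoc4 at place 6, while Fhit, Tbc1d5 and Eda stood at places 611, 1021 and 1322. These ranks are not per length, and they count RNA copies in contact with DNA, so that fewer transcribing cells and less RNA per cell cannot be told apart. Of the RNA tags in mESC 1FA, 97.5% to 98.0% were intronic for Wwox, 99.6% to 99.9% for Fhit, 93.3% to 94.8% for Exoc4, 96.7% to 98.1% for Tbc1d5 and 96.0% to 96.2% for Eda. Tags outside annotated repeats made up 87.3% to 91.2% for the first 4 genes and 76.5% to 81.0% for Eda.

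**Figure D1:**
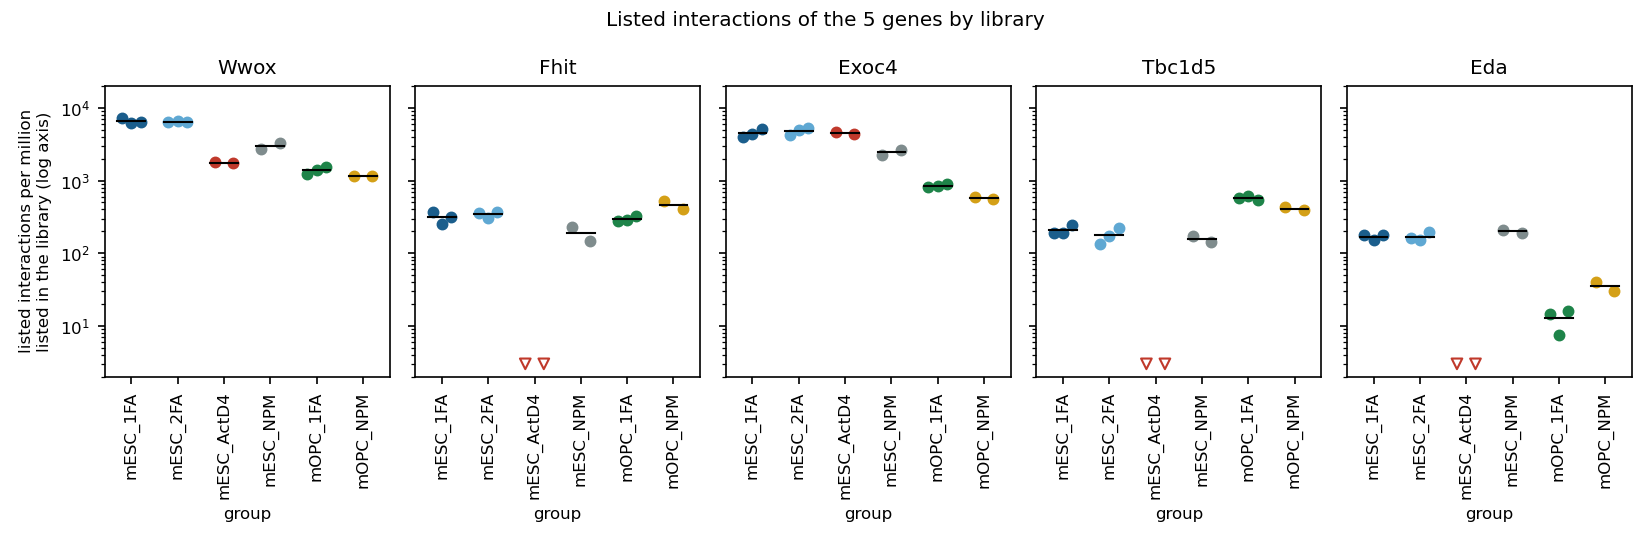
Listed CPM of each gene (its interactions over the listed total of the library, log axis) in the 6 groups; each point is 1 library, black lines are group means, and open triangles at the foot mark libraries in which the gene was listed at 0. Wwox sits between 6279 and 7274 in mESC 1FA and between 1222 and 1530 in mOPC 1FA, and Fhit, Tbc1d5 and Eda are listed at 0 in both mESC ActD4 libraries.

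The stronger fixation was compared with mESC 1FA to learn whether capture depends on crosslinking. In mESC 2FA, Wwox had 14172, 13406 and 16118 interactions (6318, 6586 and 6408 listed CPM), Exoc4 9626, 10109 and 13159, Fhit 800, 613 and 921, Tbc1d5 304, 356 and 557, and Eda 363, 311 and 485. Relative to the listed total, the libraries of both groups overlapped for all 5 genes. None of the 5 genes was called, where 0.0301% of 9962 transcripts were, 0.0201% higher and 0.01% lower (limma on log2 CPM, Benjamini-Hochberg adjusted p under 0.05). The fitted log2 differences ran from −0.31 ± 0.168 (SE) for Tbc1d5 to 0.10 ± 0.146 for Fhit, with adjusted p-values from 0.502 for Tbc1d5 to 0.904 for Eda, and unadjusted p-values from 0.0919 to 0.709. These values come from a fit without pairs. Same-numbered libraries were also taken as pairs here. With the number as a block 463 transcripts were called instead of 3, again with 0 of the 5 genes among them.

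mOPC 1FA was set against mESC 1FA to find which RNAs contact chromatin in a cell type-specific way. Wwox, Exoc4 and Eda were lower in mOPC and Tbc1d5 was higher, all by more than the spread between libraries, which the shared list of pairs understates. Wwox had 2702, 2897 and 3058 interactions in mOPC 1FA (1222, 1374 and 1530 listed CPM), every library below every mESC library, and fell by 1.75 ± 0.142 on the log2 scale (3.37-fold lower, limma adjusted p = 9.28e-06). Exoc4 had 1795, 1778 and 1767 (812, 844 and 884 listed CPM) and fell by 1.87 ± 0.128 (3.66-fold lower, adjusted p = 3.13e-06). Eda had 32, 16 and 32 interactions (14.5, 7.59 and 16 listed CPM, against 151 to 179.9 in mESC 1FA) and fell by 3.27 ± 0.25 (9.63-fold lower, adjusted p = 6.53e-06).

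Tbc1d5 had 1281, 1297 and 1077 interactions in mOPC 1FA (579, 615 and 539 listed CPM, against 192, 191 and 245 in mESC 1FA). It rose by 1.99 ± 0.135 (3.97-fold, limma adjusted p = 3.03e-06). Fhit had 617, 599 and 643 (279, 284 and 322 listed CPM), which overlap the 251 to 369 of mESC 1FA. Its fitted log2 difference was 0.45 ± 0.151 (adjusted p = 0.0244) and turned to −0.06 when libraries were scaled by their listed totals, a scaling that moved the median of all transcripts from −0.22 to −0.73. The Fhit call was also lost without mESC 1FA replicate 2 (adjusted p = 0.0715) or 3 (0.0702) and without mOPC 1FA replicate 2 (0.0674) or 3 (0.0637). All 5 genes were called, in a comparison that called 77.5% of 10256 transcripts, 34.4% higher and 43% lower, so a call alone sets these genes little apart. The fall of Wwox stands on chromosome 8, where 416 of 585 tested transcripts were lower in mOPC 1FA and 74 higher, with a median log2 difference of −1.41. The other chromosomes had medians of −0.70 (chromosome 14, of Fhit), −0.02 (6, of Exoc4), −0.33 (17, of Tbc1d5) and −0.42 (X, of Eda), and the part of the chromosome in the difference of Wwox was not tested.

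The NPM libraries were compared with the 1FA libraries of the same line to see which contacts remain without protein. In the 2 mESC NPM libraries Wwox stood at 2727 and 3327 listed CPM, Exoc4 at 2250.3 and 2670, Fhit at 230.1 and 146 and Tbc1d5 at 173 and 141, each below all mESC 1FA libraries. Eda, at 212 and 189, lay above the mESC 1FA libraries. The fitted log2 difference after TMM scaling was −1.66 ± 0.273 for Wwox (limma adjusted p = 0.000689), −1.38 ± 0.247 for Exoc4 (0.00115), −1.27 ± 0.213 for Fhit (0.000773) and −0.94 ± 0.165 for Tbc1d5 (0.00101). For Eda it was −0.28 ± 0.151 (0.143), which turned to 0.25 with listed totals as the scale, where the median of all transcripts moved from −0.01 to 0.51. The 4 calls stand beside 49.5% of 10096 transcripts called, 27.7% lower and 21.8% higher. With the replicate number as a block, Wwox (adjusted p = 0.0655) and Exoc4 (0.0914) were no longer called.

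In the 2 mOPC NPM libraries, Wwox had 1453 and 1371 interactions (1142 and 1152 listed CPM), Exoc4 746 and 670 (586 and 563) and Tbc1d5 547 and 467 (429.8 and 392.3), each below all mOPC 1FA libraries. Fhit, at 527 and 401 listed CPM, and Eda, at 40.1 and 30.2, lay above them. After TMM scaling the log2 difference was −1.35 ± 0.101 for Exoc4 (limma adjusted p = 4.36e-05), −1.28 ± 0.119 for Tbc1d5 (0.000135) and −1.05 ± 0.135 for Wwox (0.000656). Fhit (−0.15 ± 0.122, 0.319) and Eda (0.72 ± 0.357, 0.124) did not pass, beside 55.5% of 10419 transcripts called, 26.6% lower and 28.9% higher. Scaling by listed totals, which moved the median of all transcripts from 0.17 to 0.95, ended the Wwox call in mOPC (−0.26, adjusted p = 0.0979) and turned Fhit to 0.64 (0.00624). Eda was called with that scaling (1.5, adjusted p = 0.0127) and with the replicate block (0.0230).

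After actinomycin D the listed interactions of all 5 genes fell in number, as the choice of these genes required. Wwox was left with 744 and 438 interactions in the 2 mESC ActD4 libraries, 2.25% of its pooled mESC 1FA number. Exoc4 kept 1924 and 1095, or 8.52%. These percentages set 2 libraries against 3. Over 10591 protein-coding genes with at least 15 interactions in mESC 1FA, 8.19% of the pooled number was left, and the median gene kept 7.03%. Fhit, Tbc1d5 and Eda were listed at 0 in both libraries. Relative to the listed total of the library, Wwox stood at 1777 and 1739 listed CPM, below every mESC 1FA library. Exoc4 stood at 4594 and 4349 listed CPM, within the mESC 1FA range of 3934 to 5046. The log2 difference was −2.02 for Wwox and −0.10 for Exoc4 after TMM scaling, where the median of all transcripts was −0.31. Scaled by the study's uniquely mapped read pairs of each library, the differences were −3.45 and −1.52 and the median −1.71. This comparison called 60.8% of 9896 transcripts, 41.4% lower and 19.4% higher.

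A listed 0 depends on how many interactions a gene had at the start and on where they lay. Among 1297 protein-coding genes with 1000 to 3000 listed interactions in mESC 1FA, 9 (0.694%) were listed at 0 in mESC ActD4, and Fhit, Tbc1d5 and Eda are 3 of the 9. By length, these were 0 of 814 genes under 100 kb, 1 of 381 from 100 to 250 kb, 6 of 82 from 250 to 500 kb and 2 of 20 of at least 500 kb. Tbc1d5 and Eda are among the 6 and Fhit is among the 2. Genes picked for length and for this loss therefore make up part of the difference between the classes. The median gene kept 7.59% of its listed number in the shortest class and 2.70% in the longest. Over all protein-coding genes with at least 15 interactions in mESC 1FA, 26.8% of 10591 were listed at 0, against 57.5% of the 167 genes of at least 500 kb. A pair was listed only if a bin held several interactions, with a smallest listed pair of 11 interactions for Wwox in mESC 1FA and 8 in mESC ActD4, and the part of this minimum in the zeros was not tested.

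The deposited p-values allowed the number of all captured interactions behind the listed ones to be recovered, because each p follows from the RNA's total and the number of bins it was seen in. These totals are pooled over the libraries of a group and carry no replicate error. Wwox had 134560 captured interactions over 50582 bins in mESC 1FA, of which 39.1% were listed, and 16017 over 12501 bins in mESC ActD4, of which 7.38% were listed. Exoc4 had 107442 and 21069, with 33.0% and 14.3% listed. The mESC ActD4 total was thus 11.9% of the mESC 1FA total for Wwox and 19.6% for Exoc4. The median of 3261 transcripts recovered in both groups was 22.1% (quartiles 18.1% and 27.1%). A lower percentage than that of Wwox was found for 2.42% of these transcripts, and than that of Exoc4 for 34.0%. For the 48 genes of at least 500 kb among them the median was 19.8%, and for 2216 genes under 100 kb it was 22.8%. A total needs listed pairs in both groups, so these medians and ranks hold only among transcripts still listed after actinomycin D. Of the 167 genes of at least 500 kb counted above, 57.5% were listed at 0 and could not enter. Fhit (11738 captured interactions in mESC 1FA), Tbc1d5 (8104) and Eda (8202) have no listed pair after actinomycin D and therefore no recovered total there.

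The recovered totals gave another picture of the NPM libraries than the listed interactions. In mESC NPM the total of Wwox was 50718, or 37.7% of mESC 1FA, next to a median of 39.7% over 3082 transcripts. Medians here cover only transcripts with listed pairs in both groups compared, and the totals are not scaled for depth. By the study's uniquely mapped read pairs, each mESC NPM library was smaller than any mESC 1FA library. Each mOPC NPM library was larger than any mOPC 1FA library. Exoc4 stood at 41.1%, Fhit at 46.4%, Tbc1d5 at 45.7% and Eda at 50.5%. In mOPC NPM, Wwox had 41849 captured interactions against 41807 in mOPC 1FA (100.1%, median over 3363 transcripts 96.2%), and the other 4 genes stood between 89.8% for Exoc4 and 119% for Eda. Of the captured Wwox interactions, mESC 1FA listed 39.1% and mESC NPM 6.33%, while mOPC 1FA listed 20.7% and mOPC NPM 6.75%. In the comparison of the cell types the totals kept the direction of the fits, with 31.1% of the mESC number for Wwox, 22.2% for Exoc4, 23.6% for Eda, 149% for Fhit and 226% for Tbc1d5, beside a median of 68.2% over 6218 transcripts. Relative to that median the log2 difference of Eda was −1.53, smaller than the −3.27 of its listed interactions.

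Along the genes, RNA tags of mESC 1FA were denser toward the 5′ end and were more numerous after than before the start of every long intron that could be compared. The position of a tag was scored from 0 at the 5′ end of the gene to 1 at its 3′ end. In the 3 mESC 1FA libraries the mean was 0.398, 0.388 and 0.386 for Wwox, 0.346, 0.354 and 0.334 for Fhit, and 0.449, 0.448 and 0.444 for Exoc4. It was 0.432, 0.452 and 0.453 for Tbc1d5 and 0.350, 0.363 and 0.388 for Eda. The first 10% of Wwox held 14.3% to 14.5% of its tags and the last 10% held 1.10% to 1.37%. Exoc4 was nearly even at its ends, with 8.94% to 9.14% in the first and 7.65% to 8.97% in the last 10%, whereas the first 10% of Fhit held 25.3% to 26.1%.

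The 5 genes hold 19 introns of at least 40 kb. Exons and introns throughout are those of the protein-coding transcript with the largest span of each gene, and other transcripts were not examined. In mESC 1FA the 5′-proximal 50% of the intron held most of its tags in 17 of 19 (median 64.2%), from 79.3% in intron 8 of Wwox down to 43.8% in intron 8 of Fhit, the exceptions being introns 7 and 8 of Fhit with 43 and 80 tags. It did so in 19 of 19 introns in mESC 2FA, in 13 of 13 with at least 20 tags in mESC NPM, in 17 of 18 in mOPC 1FA and in 17 of 19 in mOPC NPM. The 20 kb after an intron start held more tags than the 20 kb before it at 15 of 15 long introns with enough tags and room in mESC 1FA, with a median ratio of 2.55, and at 14 of 14 in mOPC 1FA, with a median ratio of 2.14. In mOPC NPM it did so at 12 of 13, the exception being intron 17 of Exoc4 with 49 tags before and 48 after. At the Wwox junction printed above there were 509 tags in the 20 kb before intron 8 and 2597 after it, and at the Exoc4 junction 463 tags before intron 10 and 2131 after it. For Fhit intron 5, which begins with GTATCC, the numbers were 18 and 93, and for Tbc1d5 intron 2 they were 56 and 160. Intron 1 of Eda begins 0.571 kb from the 5′ end of the gene and could not be compared. These intron values are pooled over libraries and carry no test.

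**Figure D2:**
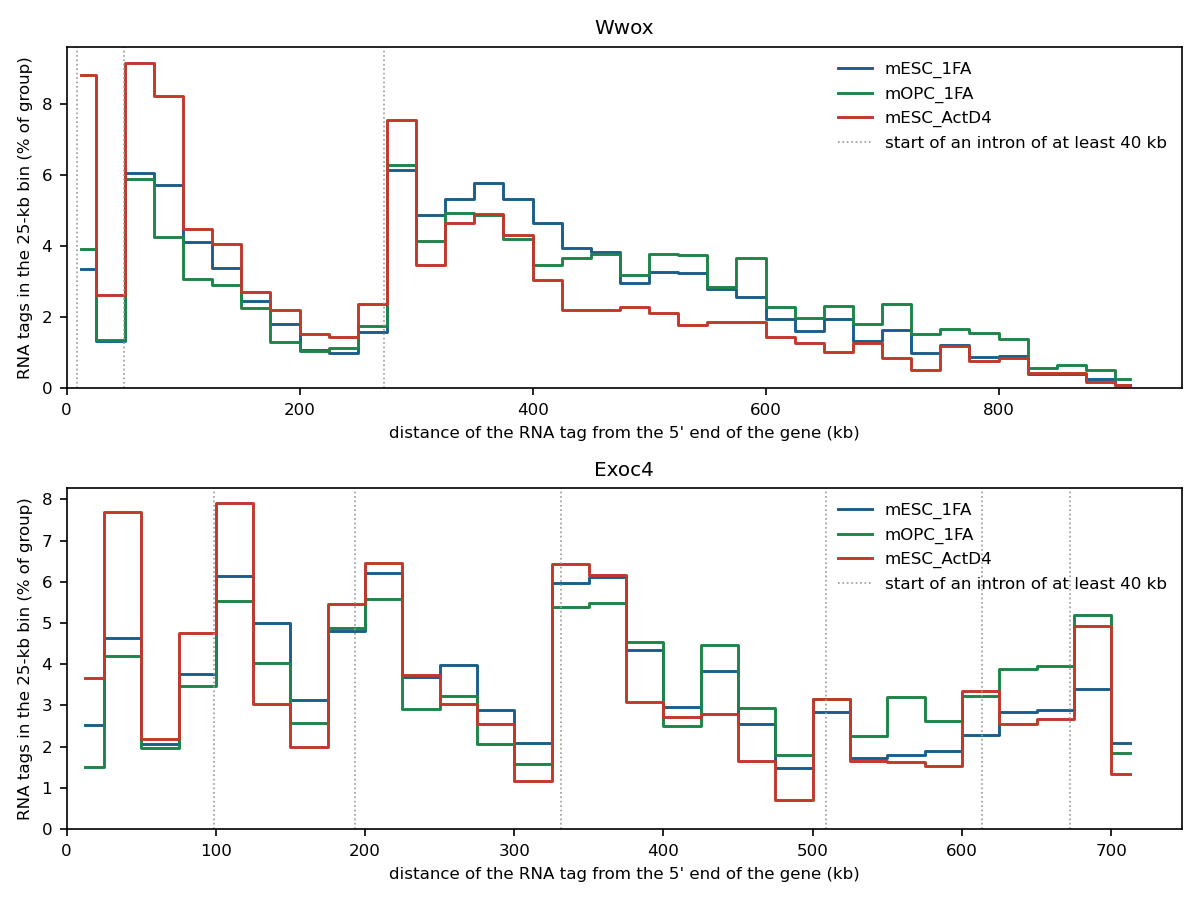
RNA tags of Wwox and Exoc4 in 25-kb bins along the gene, as a percentage of all tags of the gene in the group (libraries pooled), against distance from the 5′ end in kb; dotted lines mark starts of introns of at least 40 kb. Tags step up after an intron start and decline along the intron in mESC 1FA, mOPC 1FA and mESC ActD4, and more of them lie near the 5′ end of Wwox after actinomycin D.

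After actinomycin D the tags that remained listed lay further toward the 5′ end of the gene and of its introns. The mean position of Wwox tags was 0.321 and 0.308 in the 2 mESC ActD4 libraries, below every mESC 1FA library, and 24.6% and 26.7% of tags lay in the first 10% of the gene. For Exoc4 the mean position was 0.433 and 0.413, with 13% and 14.1% in the first 10%. All 6 long introns of Exoc4 had 72.0% to 77.5% of their tags in the 5′-proximal 50%, against 58.9% to 67.0% in mESC 1FA. In the 3 long introns of Wwox it was 74.0% to 80.4%, close to the 68.8% to 79.3% of mESC 1FA. The ratio of tags after and before intron starts had a median of 3.28 over 8 introns, from 1.93 for intron 7 to 12.2 for intron 10 of Exoc4 (17 tags before and 207 after). At intron 5 of Wwox it was 3.38, against 4.96 in mESC 1FA. These values come from the contrast by which the genes were picked and from far fewer bins (72 for Wwox, against 1468 in mESC 1FA), and the part of the smaller number of listed bins in the shift was not tested.

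Between the cell types, the mean tag position lay nearer the 3′ end in mOPC for the 4 genes with enough interactions. In the mOPC 1FA libraries the mean position was 0.416, 0.428 and 0.430 for Wwox, 0.369, 0.358 and 0.388 for Fhit, 0.498, 0.488 and 0.498 for Exoc4, and 0.519, 0.518 and 0.529 for Tbc1d5. No mOPC library overlapped the mESC 1FA libraries for any of these 4 genes, which held for 26.3% of 4887 protein-coding genes in this direction and 14.8% in the other. The differences were 0.034, 0.027, 0.048 and 0.076, each with a two-sided exact permutation p of 0.1. No smaller p is possible with 3 libraries on each side, and each had an adjusted p of 0.186 over 26 tests. For Fhit the measures differed in direction. The first 10% of the gene held 6.32%, 5.34% and 4.04% of its tags in mOPC 1FA, far below mESC 1FA, while the 5′-proximal 50% held 72.6%, 74.3% and 70.8% in mOPC 1FA and 66.7%, 66.1% and 67.2% in mESC 1FA. For Tbc1d5 that share was 47.9%, 47.5% and 45.6% in mOPC 1FA, against 59.8%, 54.7% and 56.0% in mESC 1FA. Between mESC 2FA and mESC 1FA the means differed by 0.004 (Wwox) to 0.016 (Fhit), with exact permutation p-values from 0.2 to 0.7 without pairs. None of the 5 genes was free of overlap there, as 6.78% of genes were upward and 4.88% downward. In NPM libraries of both lines Wwox tags lay further toward the 3′ end, at 0.422 and 0.412 in mESC and 0.463 and 0.464 in mOPC, a difference of 0.033 permuted within cell type (exact p = 0.01, the smallest possible, adjusted p = 0.052), without overlap in either line. Of 3767 genes, 44.5% moved this way without overlap and 1.57% the other way. The differences of Fhit (0.028, exact p = 0.03, adjusted p = 0.13), Tbc1d5 (0.017, 0.36) and Exoc4 (0.006, 0.43) did not pass either.

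In mOPC, Fhit had few tags in the first 225 kb of the gene. In mESC 1FA this stretch held 32.7%, 32.1% and 34.2% of the Fhit tags, and the next 225 kb held 16.4%, 15.3% and 18%. In mOPC 1FA the first stretch held 8.59%, 8.01% and 5.60%, and the next 38.1%, 40.1% and 38.4%. The mOPC NPM libraries had 7.0% and 7.34% in the first and 35.0% in the next stretch in both, while those of mESC NPM had 39.0% and 40.4% in the first. The step lies within intron 2 (374 kb), where the 5′-proximal 50% held 66.5% to 69.3% of tags in mESC 1FA and 13.5% to 18.5% in mOPC 1FA. The edge is the start of the 25-kb bin with the largest rise over the bin before it in mOPC 1FA (7 and 107 tags). It was set after these tags had been seen, so no test is given.

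**Figure D3:**
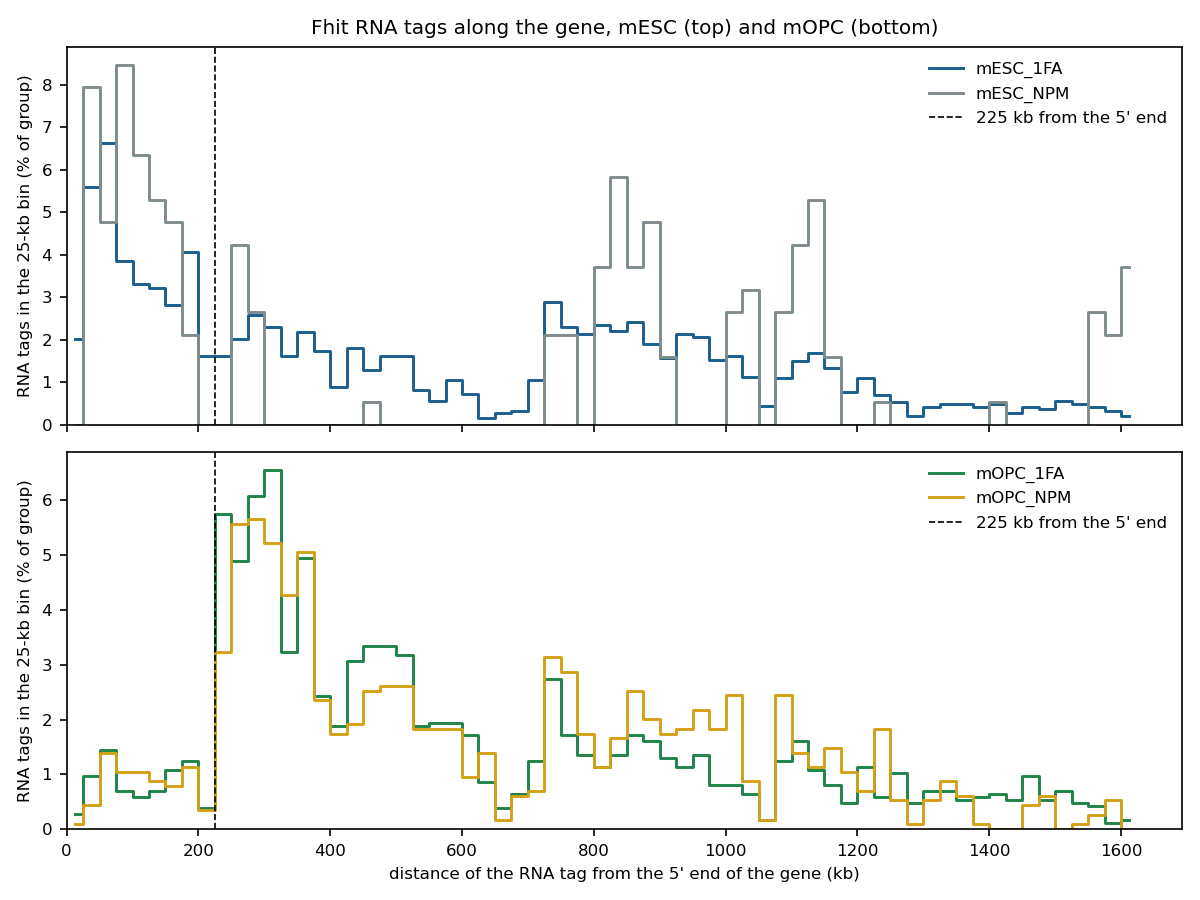
RNA tags of Fhit in 25-kb bins along the gene, as a percentage of all Fhit tags of the group (libraries pooled), against distance from the 5′ end in kb; the dashed line stands at 225 kb. In mESC 1FA the fullest bins, with up to 6.64% of tags, lie before the line, while in mOPC 1FA and mOPC NPM tags are few before the line and step up at it.

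Fhit RNA was also listed on other chromosomes of the mm10 reference in mOPC 1FA, and whether the genome of the Oli-neu line has these loci in the order of the reference was not tested. Its interchromosomal interactions numbered 89, 92 and 115 in the 3 mOPC 1FA libraries and 1, 7 and 1 in mESC 1FA, where all 9 fell in 1 bin of chromosome 17 that holds sequence of ribosomal RNA genes. In mOPC 1FA, 84, 84 and 107 of them lay in 3 blocks. The block at chr16:35725001-36025000 held 36, 41 and 58, with most tags over Kpna1 (27), which encodes an importin, Parp9 (25) and Hspbap1 (24). The block at chr16:3875001-4650000 held 31, 25 and 32, with 17 tags over Crebbp, a histone acetyltransferase gene, and the block at chr3:54500001-54750000 held 17, 18 and 17, with 22 over Supt20. No Fhit tag of these blocks came from the first 225 kb of the gene. The blocks are runs of at least 2 bins joined over gaps of at most 500 kb, and they held 0 Fhit interactions in all mESC libraries and in both mOPC NPM libraries. RNA from other chromosomes was listed on Fhit DNA in 0 of 2435 interactions in mOPC 1FA, and no interaction was listed between RNA of 1 block and DNA of another.

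Of the other genes, Exoc4 had 32, 52 and 37 interchromosomal interactions in mESC 1FA and Wwox 19, 32 and 26. For Wwox the ribosomal RNA gene bin held 66 of these 77 in mESC 1FA and 180 of 342 in mESC NPM, and for Exoc4 63 of 121 and 139 of 232. Tbc1d5 had none in mESC and 28 in mOPC 1FA over 3 bins. Eda had 7 and 12 in mESC NPM, all in the ribosomal RNA gene bin, and 0 elsewhere.

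On their own chromosome the 5 RNAs lay far from their DNA tags compared with most genes. The median distance of Wwox was 2688, 2670 and 2535 kb in mESC 1FA, that of Exoc4 1092, 1178 and 1016 kb, and that of Fhit 636, 641 and 687 kb. Tbc1d5 had 383, 412 and 318 kb and Eda 411, 455 and 368 kb. Among 1724 protein-coding genes with at least 300 interactions in every mESC 1FA library, whose medians centred on 133 kb (quartiles 96.3 and 184 kb), Wwox had the longest distance, Exoc4 stood at place 5, Fhit at 18, Eda at 49 and Tbc1d5 at 67. Among 383 genes with at least 1000 in every library, whose medians centred on 219 kb, Wwox stood at place 1 and Exoc4 at place 5. Among the 6 genes with at least 10000 in every library, whose medians centred on 1008 kb, Wwox stood at place 1 and Exoc4 at place 3. The genes ranked were not matched for length, by which the 5 had been picked, and the part of length in these ranks was not tested. Of the Wwox interactions, 28.8% to 30.6% spanned more than 10 Mb, and 20.1% to 22.2% fell inside the gene. For Exoc4 these shares were 14.8% to 16.9% and 26.9% to 29.6%.

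**Figure D4:**
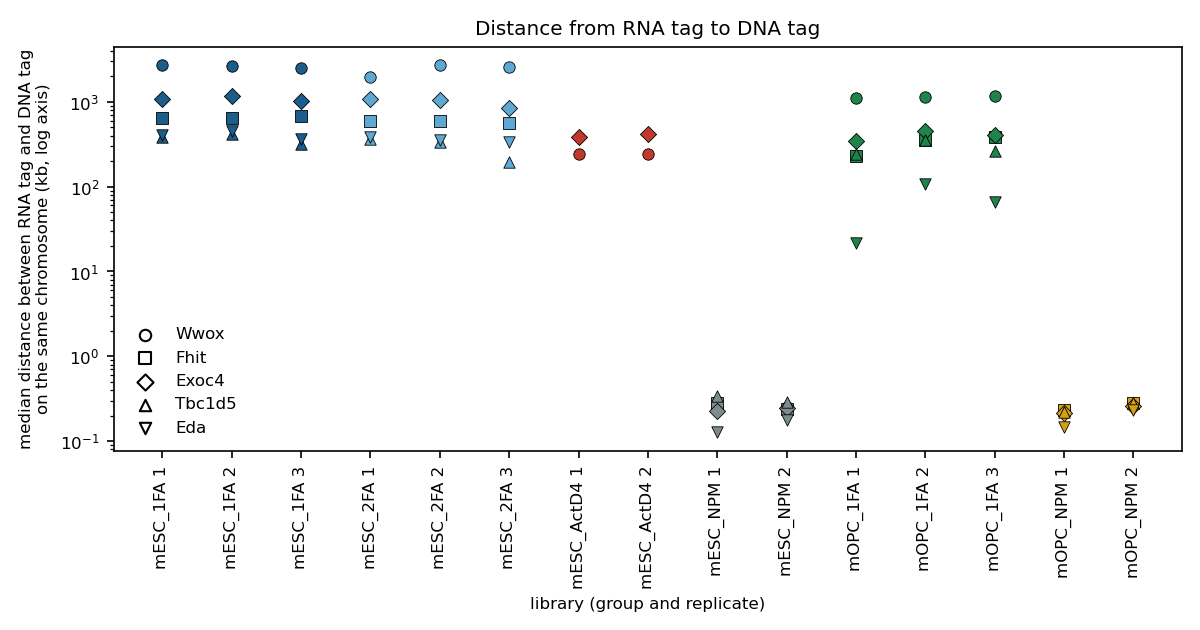
Median distance in kb (log axis) between RNA tag and DNA tag on the same chromosome, 1 symbol for each gene and library, coloured by group. Wwox is the farthest gene in every mESC 1FA, mESC 2FA and mOPC 1FA library and lies below Exoc4 in both mESC ActD4 libraries, and all NPM libraries lie below 1 kb.

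The cell types and treatments differed in distance as well. In mOPC 1FA the medians were 1104, 1136 and 1170 kb for Wwox, 342, 459 and 407 kb for Exoc4 and 233, 357 and 382 kb for Fhit, each below all mESC 1FA libraries. Tbc1d5, at 246, 351 and 260 kb, overlapped them. Fewer bins were listed in mOPC 1FA than in mESC 1FA for Wwox (340 against 1468), Exoc4 (184 against 916) and Fhit (123 against 159). The part of this in the distances was not tested. Interchromosomal interactions have no distance, and for Fhit they made up 14.4%, 15.4% and 17.9% in mOPC 1FA and 0.102% to 1.14% in mESC 1FA. With the DNA tag inside the gene alone, the log10 difference turned to 0.056 for Exoc4 and 0.057 for Tbc1d5 and was −0.083 for Fhit and −0.0044 for Wwox. Exact permutation p-values were 0.1 for the first 3 genes and 0.2 for Tbc1d5 (adjusted p = 0.186 and 0.306), and 55.7% of 4886 protein-coding genes were lower without overlap and 9.54% higher. In mESC 2FA the medians of Wwox were 1936, 2688 and 2569 kb, and of the 5 genes Fhit alone lay below mESC 1FA in all libraries (596, 598 and 570 kb, exact p = 0.1), as 33.6% of 6842 genes did, while 0.935% lay above. Within same-numbered pairs, Fhit, Exoc4, Tbc1d5 and Eda were each lower in 3 of 3 pairs (exact permutation of signs, p = 0.25, the smallest that 3 pairs allow, adjusted p = 0.361), and Wwox was not. Of the 6842 genes, 56.1% were lower in each pair and 2.73% higher.

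In all 4 NPM libraries the medians dropped to between 0.13 and 0.34 kb, and 85.7% to 98.0% of interactions of the 5 genes spanned less than 1 kb. The fall of Wwox, Fhit, Exoc4 and Tbc1d5 had an exact permutation p of 0.01 within cell types, the smallest possible (adjusted p = 0.052), and all 3766 genes tested (100%) fell without overlap. In mESC ActD4 the median was 241.0 and 241.6 kb for Wwox and 386 and 413 kb for Exoc4. Of the Wwox interactions there, 66.3% and 68.7% lay inside the gene, and 1.75% and 2.74% spanned more than 10 Mb.

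The far contacts of Wwox were not spread evenly. In 0.5-Mb windows around the gene, those starting from −28 to −18.5 Mb of the 5′ end held 148 to 464 mESC 1FA tags each, and those from −17.5 to −12.5 Mb 12 to 83. Those from −11.5 to −9.5 Mb held 250 to 477, those from 7 to 9.5 Mb at most 71, and those from 10.5 to 14 Mb 246 to 569. In mOPC 1FA no window more than 10 Mb from the 5′ end held more than 21 tags. The listing kept 20.7% of captured Wwox interactions there and 39.1% in mESC 1FA, and its part in the sparser windows was not tested. The genes outside Wwox with most of its DNA tags in mESC 1FA were Cdh13, a cadherin gene 2931 kb away, with 632, 546 and 544 tags, Zfhx3, a transcription factor gene, with 341, 265 and 310, and Gm20388 with 320, 289 and 280. These counts are not per length. Gm20388 (chr8:119910841-124345722) spans far more DNA than Cdh13 (chr8:118283733-119324921) or Zfhx3 (chr8:107942644-108961630). In mOPC 1FA, where Wwox had 8657 listed interactions against 52628 in mESC 1FA, Cdh13 had 48, 58 and 52 tags. In mESC ActD4 and the NPM libraries Cdh13 had 0.

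**Figure D5:**
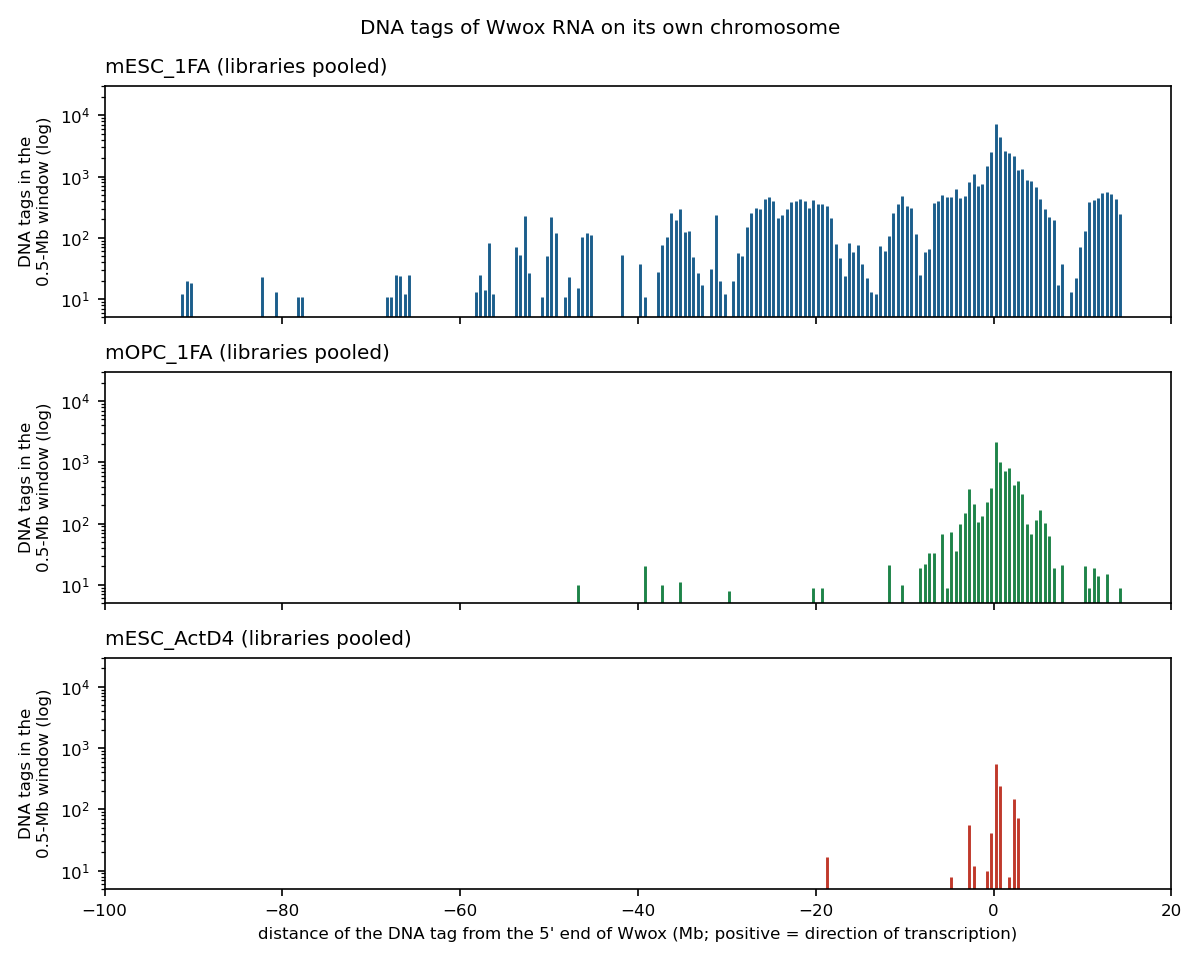
DNA tags of Wwox RNA on its own chromosome in 0.5-Mb windows (log axis, libraries pooled), against the distance in Mb from the 5′ end of the gene, with positive values in the direction of transcription. In mESC 1FA separate stretches of tags extend beyond 50 Mb upstream, while mOPC 1FA and mESC ActD4 list few windows beyond 10 Mb.

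The other genes contacted their neighbours most. Fhit tags fell on Ptprg, a receptor tyrosine phosphatase gene 391 kb away, with 134, 71 and 99 in mESC 1FA and 64, 68 and 91 in mOPC 1FA. They also fell on 4930452B06Rik on the 3′ side with 48, 30 and 45 in mESC 1FA and 0 in every mOPC 1FA library. Downstream DNA beyond the 3′ end of Fhit took 23.6% to 25.1% of its interactions in mESC 1FA and 3.24% to 3.84% in mOPC 1FA. Exoc4 tags fell on Plxna4, a semaphorin receptor gene, with 381, 410 and 577, and on Chchd3 with 351, 379 and 543. In mESC ActD4 Chchd3, 189 kb away, still had 135 and 83 and Plxna4, 661 kb away, 30 and 20. Tbc1d5 tags fell on Rftn1 with 29, 37 and 41 in mESC 1FA and 33, 60 and 34 in mOPC 1FA, and on Plcl2, 44.6 kb away, with 33, 26 and 43 and with 22, 17 and 27. On Satb1, a chromatin organiser gene, they numbered 29, 25 and 38 in mESC 1FA and 62, 54 and 51 in mOPC 1FA. These are counts and not shares, and Tbc1d5 had 1673 listed interactions in mESC 1FA and 3655 in mOPC 1FA. Eda contacted Awat2 and Kif4 with 54 tags each over the 3 mESC 1FA libraries.

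Close to the RNA tag, DNA tags of Wwox and Exoc4 lay more often downstream than upstream in 1FA libraries. Among interactions of 1 to 50 kb whose RNA tag was at least 50 kb from either end of the gene, 57.8%, 62.0% and 63.0% were downstream for Wwox in mESC 1FA, and 71.2%, 67.8% and 66.9% for Exoc4. Fhit was closer to even in mESC 1FA, with 53.1%, 51.0% and 56.1% of 81, 49 and 57 interactions, and stood at 78.9%, 70.7% and 71.2% in mOPC 1FA. Tbc1d5 had 72.7%, 52.6% and 72.6% in mESC 1FA. After actinomycin D the shares were 65.7% and 64.1% for Wwox and 65.3% and 62.8% for Exoc4. In mESC NPM few such interactions were listed and most lay upstream, with 2 of 27 and 0 of 32 downstream for Exoc4 and 4 of 23 and 2 of 19 for Wwox.

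Lists of genes of the same pathways, with Exoc4, Tbc1d5 and Eda counted in, held calls in both directions. In this comparison 34.4% of all transcripts were higher and 43% lower, and the lists were not tested against these shares. Of 8 exocyst subunits tested between the cell types, Exoc4 included, 3 were higher and 3 lower in mOPC 1FA (median log2 difference −0.24, all transcripts −0.22), with Exoc3 at 1.47 and Exoc7 at 1.27 against −1.87 for Exoc4. Of 10 genes of the retromer and its partners, Tbc1d5 included, 3 were higher and 5 lower (median −0.38), with the core subunit gene Vps35 at −2.71 against 1.99 for Tbc1d5. Of 4 ectodysplasin pathway genes tested, Eda and the receptor gene Eda2r (−7.38) were lower and Traf6 (0.92) and Tnfrsf19 (2.99) higher. Of 27 fragile site and very long genes, Wwox and Fhit included, 16 were higher and 10 lower (median 1.08), and of 174 genes of at least 500 kb, 104 were higher and 55 lower (median 2.03). In listed interactions of the NPM libraries, 82 of 143 of these long genes were lower in mESC, where 27.7% of all transcripts were, and 119 of 184 in mOPC, where 26.6% were, with 6 and 48 higher. Recovered totals exist only for genes that stayed listed in both groups, so they cannot be set against these counts. The median was 44.0% of the 1FA total for 84 long genes in mESC NPM (39.7% for all transcripts recovered). In mOPC NPM it was 94.5% for 142 long genes (96.2%). The fragile site list was lower for 18 of 23 in mESC NPM and 22 of 26 in mOPC NPM, with 0 and 1 higher.

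Over the 15 libraries, genes whose log2 CPM followed each of the 5 closely among 3343 protein-coding genes differed for each. They were Dab1 (Pearson's r = 0.98), Ttc27 and Ap3s2 for Wwox, Tbc1d19 (1.00), Sox5 and Dcaf6 for Fhit, and Arl15 (0.99), Zfp704 and Pitpnc1 for Exoc4. Cacna2d1 (1.00) and Tmem241 followed Tbc1d5, and Ipo8 (0.97), Prex2 and Pstpip2 followed Eda. The 15 libraries form 6 groups, and for genes listed at 0 in mESC ActD4 the 2 libraries at 0 carry much of r, so these values describe similar group patterns. Dab1 (1125 kb) and Sox5 (954 kb) are long genes as well, while Ap3s2 spans 45.3 kb.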

How the data were processed

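RADICL-seq tags had been extracted, cleared of ribosomal RNA and PCR duplicates, aligned to mm10 with BWA 0.7.15-r1140 (base calls by CASAVA 1.8, per the submitters' processing notes) and assigned to GENCODE M14 genes by strand. The authors computed a one-sided binomial p-value for each pair of an RNA and a 25-kb bin on pooled replicates and adjusted it by the Benjamini-Hochberg method. The deposited files list 1 line per interaction of a significant pair with the tag positions and the deposited p-values, in 32 columns without a header. Replicates of a group therefore share 1 list of pairs, which understates their spread, and a gene listed at 0 may still have been captured.

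Interactions were counted per gene and library (the files hold no count column) and positions taken from GENCODE M21 on the same build. Exons and introns were taken from the protein-coding transcript with the largest span of each gene (Wwox-201, Fhit-201, Exoc4-201, Tbc1d5-201 and Eda-205). Counts of at least 10 in as many libraries as the smaller group, with a total of at least 15, were scaled by TMM factors, set on log2 CPM with a prior count of 0.5 and tested with limma 3.58.1 (R 4.3.3, trend, two-sided, Benjamini-Hochberg over all transcripts). On simulated counts, 96% to 100% of log2 changes of 2 and 63% to 92% of log2 changes of 1 were recovered, and 3.98% to 11.7% of calls were false, the most in mESC NPM. The simulated counts were independent between libraries and left out the listing of pairs on pooled replicates. These rates may therefore not carry over to the listed interactions. Position and log10 median distance were tested by exact permutation of libraries, for genes with at least 20 interactions in every library of a contrast (Python 3.11.15, SciPy 1.17.1). RNA totals were recovered from the deposited p-values as the numbers that reproduce each RNA's p-values within 1e-09, an analysis added after the data were seen. Same-numbered libraries of mESC 2FA and mESC 1FA deviated together (r = 0.53, 0.46 and 0.66 over 4144 transcripts). The numbers were therefore also taken as pairs there for capture and distance, beside the tests without pairs.

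The genes, the lists and the tests were chosen with earlier results of these data known. Named genes were the 5 genes, the 3 genes most like each over the libraries (1 of them is not reported here), the 3 genes with most of its DNA tags outside it in mESC 1FA, and members of the lists; genes in the Fhit blocks were named after their values were seen. Alternatives were other scalings, no filter on low counts, a prior count of 2, each pair of a gene and a bin counted once, a replicate block, and leaving out each library.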

Additional observations from a re-analysis of the deposited data

Results flagged for a closer look

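Relative to the mean of the 1FA libraries, Eda stood at −0.34 and −0.40 on the log2 CPM scale in the 2 mESC NPM libraries and at 0.77 and 0.46 in the 2 mOPC NPM libraries after TMM scaling, opposite directions with a gap of 0.99. The opposite directions depend on that scaling. With listed totals the log2 differences were 0.25 in mESC and 1.5 in mOPC, and with recovered totals against the median of all transcripts 0.35 and 0.31. The difference itself was not tested. Neither response passed within its line after TMM scaling without a block, while the mOPC response passed with listed totals (limma adjusted p = 0.0127) and with the replicate block (0.0230), and the mOPC values rest on 16 to 51 listed interactions per library.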

How the results depend on the processing

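The limits come from the listing. Significance was called on pooled libraries, so replicates share their bins. The mESC ActD4 and NPM groups list far fewer bins than 1FA (72, 48 and 42 for Wwox in mESC ActD4, mESC NPM and mOPC NPM, against 1468 in mESC 1FA and 340 in mOPC 1FA), and the part of this in their distances, positions and listed numbers was not tested. Between the cell types, mOPC 1FA lists fewer bins than mESC 1FA for each gene except Tbc1d5 (144 against 94). The part of that in distances and positions was not tested either. The recovered totals carry no replicate error and no scaling for depth. Each median set beside them covers only transcripts with listed pairs in both groups compared. No test of position or distance passed the threshold in any setting, and 3 libraries against 3 allow no exact p under 0.1.

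The counts of genes called among the 5 kept within 1.5 times of the reported ones except in 2 settings. With each pair of a gene and a bin counted once, 5 instead of 0 were called between mESC 2FA and mESC 1FA (Wwox 0.16, Eda 0.078 with turned direction), where 4354 of 5660 transcripts were called and replicates differ little because they share a list of pairs. With the replicate number as a block, 2 instead of 4 were called in mESC NPM, where same-numbered libraries do not clearly deviate together and the numbers were not taken as pairs, and calls among all transcripts there were 4251 instead of 4993. The block turned no gene's direction and brought Eda past the threshold in mOPC NPM. Counts over all transcripts moved beyond 1.5 times without the filter on low counts (2081 in mESC 2FA, 10283 in mESC ActD4, 8904 in mESC NPM, 9060 in mOPC NPM) and in mESC 2FA with the block (463) or scaled by the study's uniquely mapped read pairs (66).

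Other scalings and totals turned these log2 differences. Pairs counted once gave 0.20 for Tbc1d5 and 0.38 for Eda in mESC NPM and 1.01 for Fhit in mOPC NPM. Listed totals gave 0.25 for Eda in mESC NPM, −0.063 for Fhit between the cell types and 0.64 for Fhit in mOPC NPM. The study's uniquely mapped read pairs gave 0.050 for Wwox and 0.086 for Eda in mESC 2FA and −0.12 for Fhit between the cell types. Recovered totals, added after the data were seen and set against the median of all transcripts, gave 0.081 for Wwox and 0.032 for Eda in mESC 2FA, 0.22 for Fhit, 0.048 for Exoc4, 0.20 for Tbc1d5 and 0.35 for Eda in mESC NPM, and 0.057 for Wwox, 0.081 for Fhit and 0.12 for Tbc1d5 in mOPC NPM. After actinomycin D, Wwox stood at −1.91 with listed totals, −2.12 without the filter, −3.45 with read pairs and −0.89 with recovered totals, and Exoc4 at 0.015 with listed totals and −1.52 with read pairs. The cause was not tested. Pairs counted once were not run for actinomycin D, and Eda had too few pairs for that setting in mOPC NPM.

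Leaving out 1 library gave −0.17 to 0.019 for Exoc4 and −2.07 to −1.94 for Wwox after actinomycin D, and in mESC 2FA −0.0077 to 0.17 for Exoc4, −0.15 to 0.019 for Eda and −0.067 to 0.23 for Fhit. It kept the calls at 4 to 5 of 5 between the cell types, 4 in mESC NPM and 3 in mOPC NPM. For mean position it gave −0.0028 to 0.013 for Tbc1d5 and −0.00078 to 0.037 for Eda in mESC 2FA, and −0.0028 to 0.015 for Exoc4 in NPM. With interactions within 1 kb left out, Exoc4 (−0.081) and Tbc1d5 (−0.013) turned in NPM, as did Exoc4 (−0.0045) with each RNA tag position once. The log10 distance between the cell types turned for Exoc4 (0.056) and Tbc1d5 (0.057) with the DNA tag inside the gene and for Tbc1d5 (0.22) with pairs counted once, and in mESC 2FA for Tbc1d5 (0.015) with the DNA tag inside the gene.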
